A study of Mus musculus with 12 samples.

Results

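Deubiquitinases are proteases that cut ubiquitin from proteins or trim ubiquitin chains, and the USP (ubiquitin-specific protease) and OTU (ovarian tumour) families are both cysteine proteases. The genes described here are those whose array gene name begins with Usp, Otud or Otub followed by a digit, without the interferon-induced Usp18. This rule gave 59 genes of the 30282 genes and unnamed features on the array, measured by 120 probes. Of these genes, 49 carried a Usp name and 10 an Otud or Otub name. One of them, Usp6nl, has a Usp-like name but encodes a Rab GTPase-activating protein. The rule used names only, not measured values. A gene was tested where 1 of its probes exceeded background in 6 or more of the 12 mice, which held for 50 of the 59 genes. The other 9 were Otud6a, Otud7a, Usp9y, Usp17l5, Usp26, Usp27x, Usp29, Usp43 and Usp44, and no difference is given for them.

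RNA came from quadriceps, the large thigh muscle, of male C57BL/6J mice 13 weeks old, with 1 mouse an array on one-colour Agilent mouse arrays. The exercised group of 6 mice had run on a motorised treadmill for 4 weeks and was sampled 3 hours after the last bout, and the 6 sedentary mice had not trained. The 4 weeks and the last bout cannot be told apart, and no time of day was among the labels used here. Per the file headers there were 3 slides. Slide 1 carried 1 exercised and 3 sedentary mice, slide 2 carried 3 exercised mice and 1 sedentary mouse, and slide 3 carried 2 of each. All 10 muscle fibre markers looked at, among them Acta1, Ckm and Myh4, passed the same background filter. A level below is the log2 signal minus the array's 75th percentile, so 0 means the level of that percentile, and it sets mice against each other for 1 probe, not probes against one another. The number of arrays limits the precision. Probes well above background ran from 21707 to 25229 an array, without a difference between groups (two-sided exact permutation test, p = 0.814).

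Ubiquitin is attached by a cascade of activating, conjugating and ligating enzymes, and deubiquitinases reverse this step, free ubiquitin for reuse or edit the chain type. In muscle the system is known for protein turnover through the proteasome, with ligases such as Trim63 and Fbxo32 controlled by FOXO transcription factors. Most USP and OTU enzymes are regulated by partners, location and modification, while a few, among them Usp2 and Otud1, are known for changes in transcript amount.

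The 3 genes whose levels did not overlap between the groups, Otud1, Usp54 and Usp2, are shown by the 250 bases before their RefSeq start on build GRCm38.p6. These lie at chr2:19657481-19657730 on the plus strand for Otud1, chr14:20618355-20618604 on the minus strand for Usp54 and chr9:44084670-44084919 on the plus strand for Usp2. Each is printed 5′ to 3′ along its gene, and capitals mark every match to 1 of 10 short motifs searched on both strands.
Otud1: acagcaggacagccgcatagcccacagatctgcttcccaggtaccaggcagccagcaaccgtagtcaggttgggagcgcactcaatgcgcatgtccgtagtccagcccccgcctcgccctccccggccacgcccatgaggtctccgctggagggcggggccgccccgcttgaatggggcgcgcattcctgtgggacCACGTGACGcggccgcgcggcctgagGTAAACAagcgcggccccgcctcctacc
Usp54: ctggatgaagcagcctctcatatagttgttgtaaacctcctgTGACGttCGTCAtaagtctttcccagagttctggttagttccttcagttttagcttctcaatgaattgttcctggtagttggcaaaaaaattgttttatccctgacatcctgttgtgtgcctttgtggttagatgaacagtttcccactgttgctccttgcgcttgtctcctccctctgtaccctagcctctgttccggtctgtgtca
Usp2: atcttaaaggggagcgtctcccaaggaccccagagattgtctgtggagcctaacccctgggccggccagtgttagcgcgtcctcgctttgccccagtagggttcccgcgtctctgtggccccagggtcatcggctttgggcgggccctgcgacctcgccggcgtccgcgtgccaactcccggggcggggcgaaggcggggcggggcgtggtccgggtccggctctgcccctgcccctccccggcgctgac

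The Otud1 window held the E-box CACGTG beginning 54 bases before the start, the cAMP response element core TGACG at 50 bases, which shares its first 2 bases with that E-box, and the forkhead motif GTAAACA at 28 bases. The Usp54 window held TGACG at 208 bases and its reverse complement at 201 bases. The Usp2 window held none of the 10. CACGTG was present in 6.02% of all 32851 promoter windows and in 6 of the 43 windows of tested members. TGACG was present in 17.8% of all windows and 32.6% of member windows. GTAAACA was present in 3.17% of all windows and in 1 member window, that of Otud1. The other motifs searched were the full element TGACGTCA (1.55% of all windows), the heat shock pair GAANNTTC (6.69%), the glucocorticoid half-site AGAACA (16.1%), the AP-1 motif TGANTCA (6.75%), the NF-kappaB motif GGGANTTCC (1.43%), CCAAT (33.8%) and the D-box TTANGTAA (2.06%). G and C made up 69.2% of the Otud1 window, 71.6% of the Usp2 window and 45.2% of the Usp54 window, beside medians of 64.0% over member windows and 52.4% over all. A match describes letters in the window and is not a bound site. Otud1 and Usp54 both carry the TGACG core, and the 3 windows have no motif in common.

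Among the 50 tested genes, Otud1 and Usp54 were higher in exercised muscle and none was lower at an adjusted p below 0.05 (limma, Benjamini-Hochberg over 16526 genes and unnamed features). That is 4% of the members, against 3.65% called over all genes in either direction, 1.81% higher and 1.84% lower. The count is thus near the background. Under normexp background correction, whose fit failed on 4 arrays and which called 0 of all genes, neither passed, with differences of 1.22 for Otud1 and 0.34 for Usp54. At an unadjusted p below 0.05 there were 5 members, or 10%, against 16.2% of all genes. Groups did not overlap for 3 members, or 6%, against 2.98% of all genes. The median difference of the members was -0.03 on the log2 scale, as was that of all genes. Differences were above 0 for 17 members (34%) and below 0 for 33 in the main scaling. Over all genes 42.1% were above 0, so most genes also lay below 0. Normexp background correction put 27 members above 0, and 23 when its local background was limited.

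Otud1 encodes an OTU deubiquitinase known for cutting ubiquitin chains in antiviral and NF-kappaB signalling. Its probe lies at chr2:19581150-19581209 on build mm9, the build of the array annotation. Exercised mice had levels of 1.07 (slide 1), 0.71, 1.46 and -0.20 (slide 2), -0.85 and 0.70 (slide 3). Sedentary mice had levels of -1.65, -2.44 and -0.89 (slide 1), -1.89 (slide 2), -2.38 and -1.84 (slide 3). Every exercised mouse was above every sedentary mouse, but the lowest exercised mouse, on slide 3, was close to the highest sedentary mouse, on slide 1. Otud1 rose by 2.33 on the log2 scale (SE 0.376, n = 6 and 6), or 5.03-fold with a 95% interval from 2.86 to 8.86, at a limma adjusted p of 0.00466. The spread was wide, with an SD of 0.853 in exercised and 0.566 in sedentary mice. Within slides 1, 2 and 3 the difference was 2.73, 2.55 and 2.04, and a fit with the slide as a block gave an adjusted p of 0.0138. The size depended on the background correction: normexp with limited local background, an alternative added after the data were seen, gave 1.58 on the log2 scale, or 3.0-fold (adjusted p = 0.00295).

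Usp54 belongs to the USP family and was long annotated as catalytically inactive. Its levels in exercised mice were 0.44 (slide 1), 0.21, 0.35 and 0.52 (slide 2), 0.38 and 0.28 (slide 3). In sedentary mice they were -0.24, -0.05 and -0.01 (slide 1), -0.43 (slide 2), -0.55 and -0.03 (slide 3). The groups did not overlap, and the sedentary mice were more spread, with an SD of 0.231 against 0.112. Usp54 rose by 0.58 on the log2 scale (SE 0.104), or 1.5-fold with an interval from 1.28 to 1.75, at an adjusted p of 0.00841, or 0.0140 once the slide was a block. The within-slide differences were 0.54, 0.79 and 0.62. This value rests on 1 of 3 probes. The array annotation gives that probe only 7 bases, at chr14:21368134-21368140 on the minus strand of mm9, and the 2 other Usp54 probes were above background on 0 and 1 of the 12 arrays.

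Usp2 encodes a deubiquitinase whose transcript is known for a daily rhythm and whose targets include cell cycle and clock proteins. It did not pass the test, with a difference of 0.42 on the log2 scale (SE 0.106), 1.34-fold with an interval from 1.14 to 1.57, and an adjusted p of 0.0508. Exercised levels were 3.81 (slide 1), 4.04, 4.00 and 4.09 (slide 2), 4.07 and 3.96 (slide 3). Sedentary levels were 3.74, 3.78 and 3.80 (slide 1), 3.44 (slide 2), 3.17 and 3.54 (slide 3). The groups did not overlap, yet on slide 1 the 4 mice lay close together and the difference there was 0.04, against 0.60 on slide 2 and 0.66 on slide 3. Blocking on the slide gave an adjusted p of 0.0711. A further probe of Usp2 gave 0.30 (adjusted p = 0.176). Usp2 passed without the sedentary mouse labelled group 2 animal 5, on slide 1 (adjusted p = 0.0427), and under the other settings named in the closing section.

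**Figure D1:**
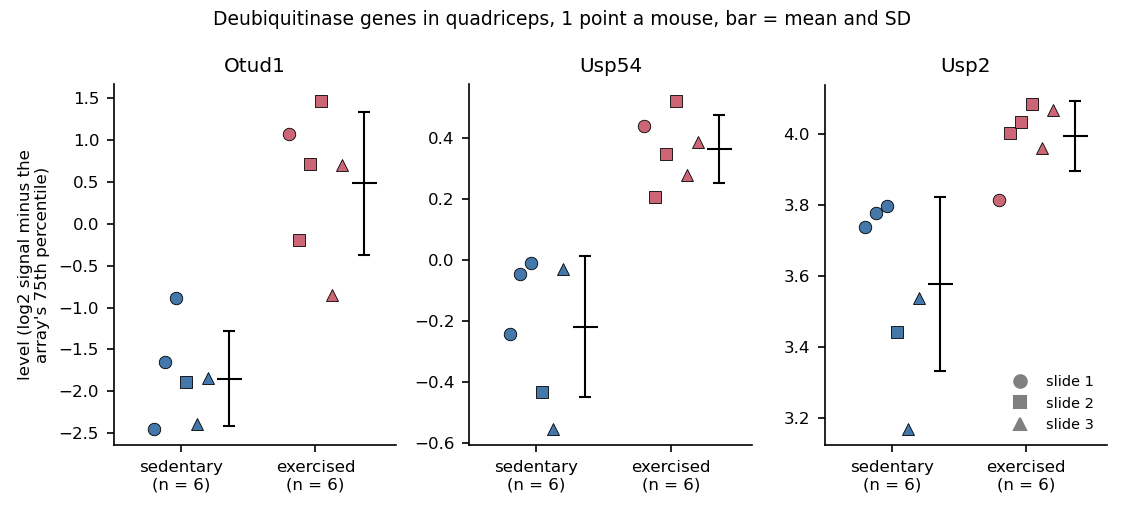
Level of Otud1, Usp54 and Usp2 in each mouse (vertical axis, log2 signal minus the array's 75th percentile, a scale of its own for each gene), with the slide as symbol and bars for mean and SD of 6 mice. In each panel the lowest exercised mouse is above the highest sedentary mouse, narrowly for Otud1 (-0.85 against -0.89) and Usp2 (3.81 against 3.80).

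The other 47 members lay between -0.23 and 0.15 on the log2 scale. With the probe used for each gene, all 47 had a 95% interval within 1.5-fold in either direction, so 94% of the 50 members did, against 76.0% of all genes. Further probes of Usp15, Usp33 and Usp37 had intervals reaching 0.65, 0.63 and 0.64 on the log2 scale, beyond 1.5-fold. The median SD between mice of a group was 0.139 over members and 0.188 over all genes, and the median half-width of the interval was 0.183 against 0.231.

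**Figure D2:**
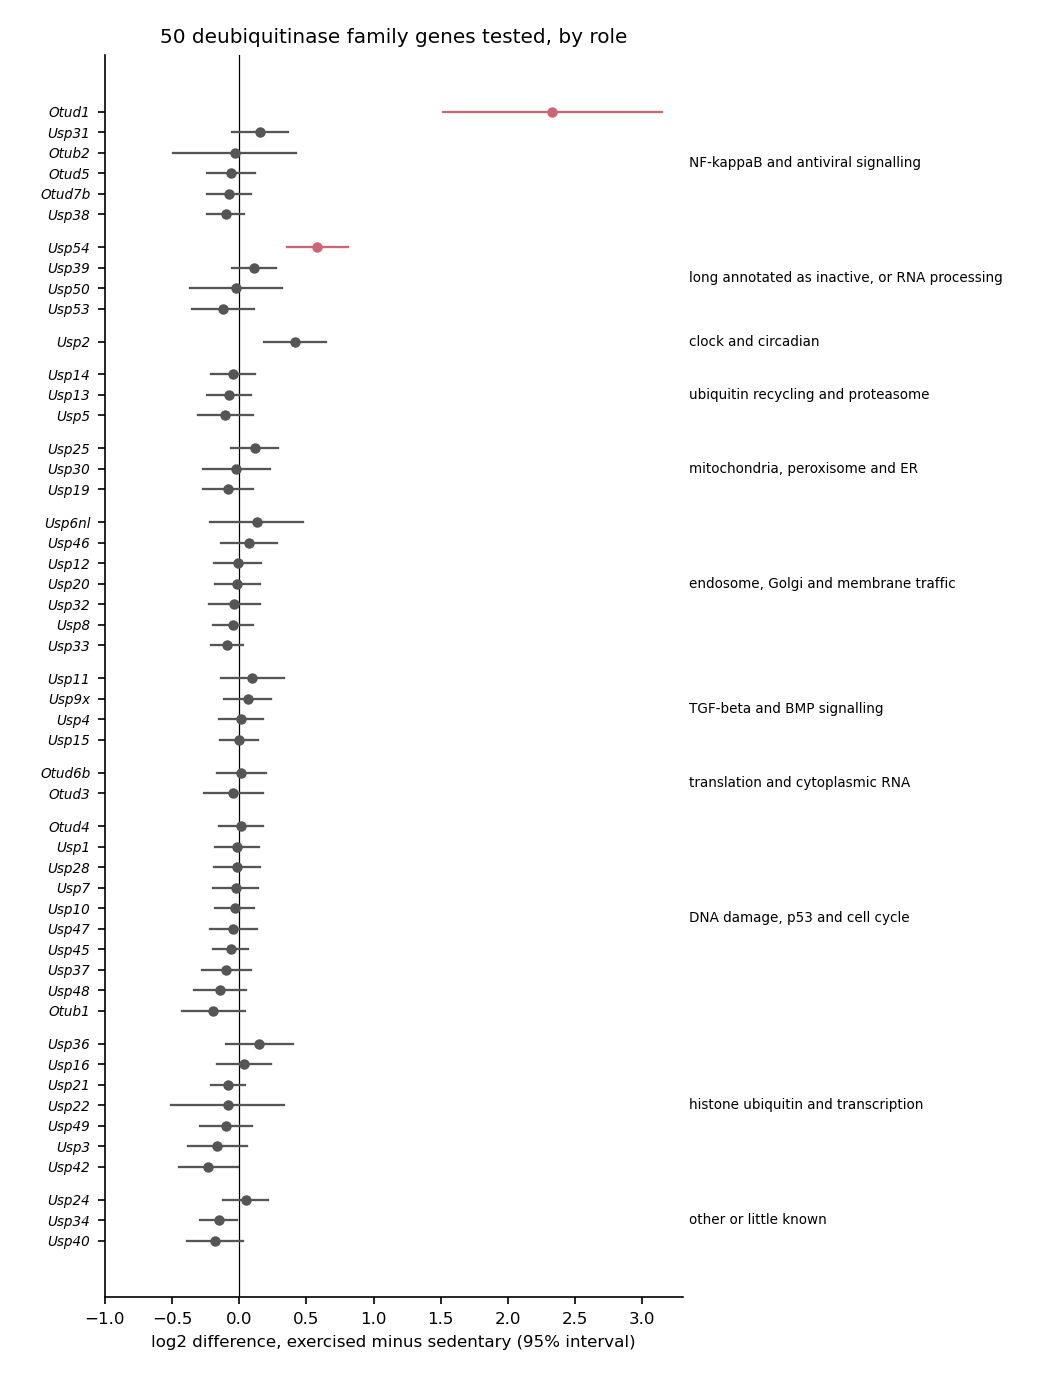
Log2 difference (horizontal axis, exercised minus sedentary, 6 against 6 mice) with its 95% interval for each of the 50 tested members, grouped by role, with the 2 called members in red. Otud1 at 2.33, Usp54 at 0.58 and Usp2 at 0.42 stand to the right, and the other 47 points lie between -0.23 and 0.15.

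In the group that recycles ubiquitin at the proteasome, none of the 3 members passed the test. All 3 differences were below 0, as were 9571 of all 16526 genes. Usp5, which takes apart free chains, was at -0.10. Its relative Usp13 was at -0.08 with an interval from -0.24 to 0.09, and Usp14, which trims chains on the proteasome itself, was at -0.05 with an interval from -0.21 to 0.12. Further probes of Usp14 were at 0.07 and -0.06.

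Of the members that act on histones or transcription, 0 of 7 passed, with 2 above 0. Usp42, a histone deubiquitinase, had the lowest difference of all members at -0.23 (interval -0.45 to -0.01, adjusted p = 0.283). Its exercised levels ran from -1.24 through a median of -0.88 to -0.52, its sedentary levels from -0.77 through -0.60 to -0.56. The exercised mice spanned the whole sedentary range. Usp3, which acts on histone H2A, was at -0.16 (adjusted p = 0.483). Usp22, the deubiquitinase of the SAGA complex, was at -0.09 with one of the wider intervals, from -0.50 to 0.33. Usp36, a nucleolar enzyme, was at 0.15, the highest of this group.

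Among members of DNA repair, p53 and the cell cycle, 0 of 10 passed and 9 were below 0, with the lowest at -0.19 and the highest at 0.01. Over all genes 9571 of 16526 were below 0. Otub1, which also holds conjugating enzymes inactive, was lowest at -0.19 (interval -0.43 to 0.04, adjusted p = 0.427). Usp48 was at -0.14 (adjusted p = 0.487). Usp7, which acts on Mdm2 and p53, was at -0.03 with an interval from -0.19 to 0.14. Usp28, known for stabilising Myc, was at -0.02, and Usp1, which works with Wdr48 in DNA crosslink repair, was at -0.02 with an interval from -0.18 to 0.15. The signs of Usp28, Usp7 and Usp1 changed in 11, 8 and 6 of the 32 alternatives of the closing section.

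Of the members of endosome, Golgi and membrane traffic, 0 of 7 passed, with 2 above 0. Usp33, which acts on receptors of the cell surface, had the smallest p of this group at a difference of -0.09 (adjusted p = 0.487). Usp8, an endosomal enzyme, was at -0.05. The 3 members of mitochondria and endoplasmic reticulum did not pass either. Usp25 was at 0.11 (interval -0.06 to 0.29), Usp19, known from studies of muscle wasting, at -0.08 (interval -0.27 to 0.10), and Usp30, which opposes Parkin on the mitochondrial outer membrane, at -0.02 (interval -0.27 to 0.23).

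All 4 tested members of TGF-beta and BMP signalling were above 0, as were 42.1% of all genes, and none passed. Of these, Usp15 was at 6.5e-05, which gives no direction, and its probes lay on both sides of 0. The highest was Usp11 at 0.10, and Usp9x, which acts on Smad4, was at 0.06 with an interval from -0.11 to 0.24. Beside Otud1, the other 5 members of NF-kappaB and antiviral signalling lay between -0.10 for Usp38 and 0.15 for Usp31. Otud5, which acts on TRAF3, was at -0.06 (interval -0.24 to 0.11). Otub2 had a wide interval, from -0.49 to 0.42. Beside Usp54, the members Usp39, Usp50 and Usp53 were at 0.11, -0.02 and -0.12. Otud3 and Otud6b were at -0.05 and 0.01. Of the remaining enzymes, Usp34, known from Wnt signalling, was at -0.15 with an interval from -0.29 to -0.02 (adjusted p = 0.234), and Usp40 was at -0.18 (adjusted p = 0.396). Usp34 levels ran from 2.97 through 3.15 to 3.26 in exercised and from 3.22 through 3.31 to 3.41 in sedentary mice, so the groups overlapped.

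**Figure D3:**
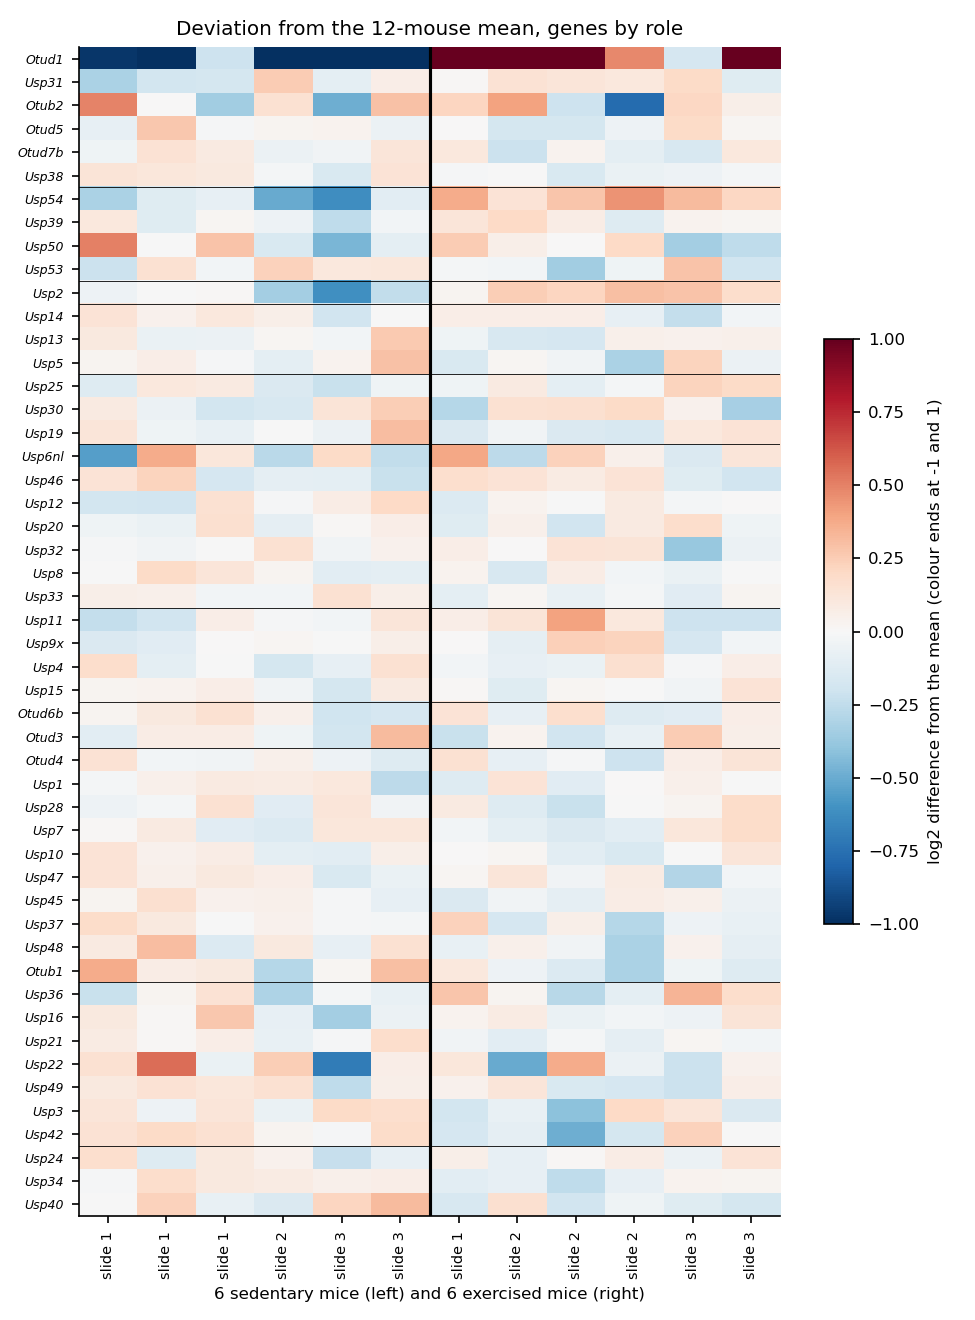
Each row is 1 of the 50 tested members, each column 1 mouse (6 sedentary left, 6 exercised right, ordered by slide), and colour is the log2 level minus that gene's mean over 12 mice, with colours ending at -1 and 1. The rows of Usp54 and Otud1 are blue on the left and red on the right, apart from 1 pale blue exercised mouse of Otud1 (level -0.85), Usp2 is nearly white on slide 1, and the other rows lie between -0.23 and 0.15 in their group difference.

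For 27 members more than 1 probe was above background, and in no case were the intervals of 2 probes of a gene disjoint. With every probe as its own row, 2 of 91 member probes were called, those of Otud1 and Usp54, or 2.2% against 3.31% of all probes. Usp15 had 6 such probes, between -0.27 and 0.21. Usp32 had a further probe at -0.29 (adjusted p = 0.123) beside the probe used, at -0.04.

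**Figure D4:**
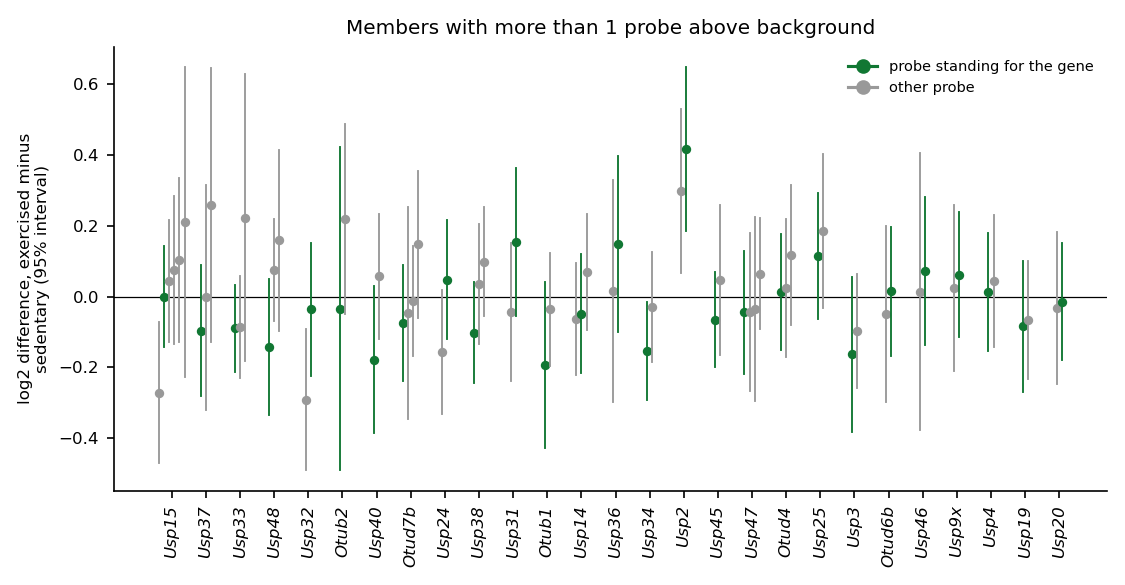
Log2 difference (vertical axis, exercised minus sedentary) with its 95% interval for each probe of the 27 members with more than 1 probe above background, the probe that stands for the gene in green, ordered by the range between probes. Usp15 shows the widest range, from -0.27 to 0.21, and both Usp2 probes lie above 0.

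With slide as a block the same count of 2 members was called, against 2.12% of all genes. Differences among slides passed for 0 members and for 1.62% of all genes, with 6 members (12%) and 14.4% of all genes at an unadjusted p below 0.05. The titles number the mice within sets 1 and 2 of unstated meaning. A difference of the training effect between these sets passed for 0 members and for 0% of all genes by limma, while 5 members and 1445 genes in all had an unadjusted p below 0.05. None of those 5 was Otud1, Usp54 or Usp2, whose unadjusted p was 0.460, 0.0561 and 0.197.

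**Figure D5:**
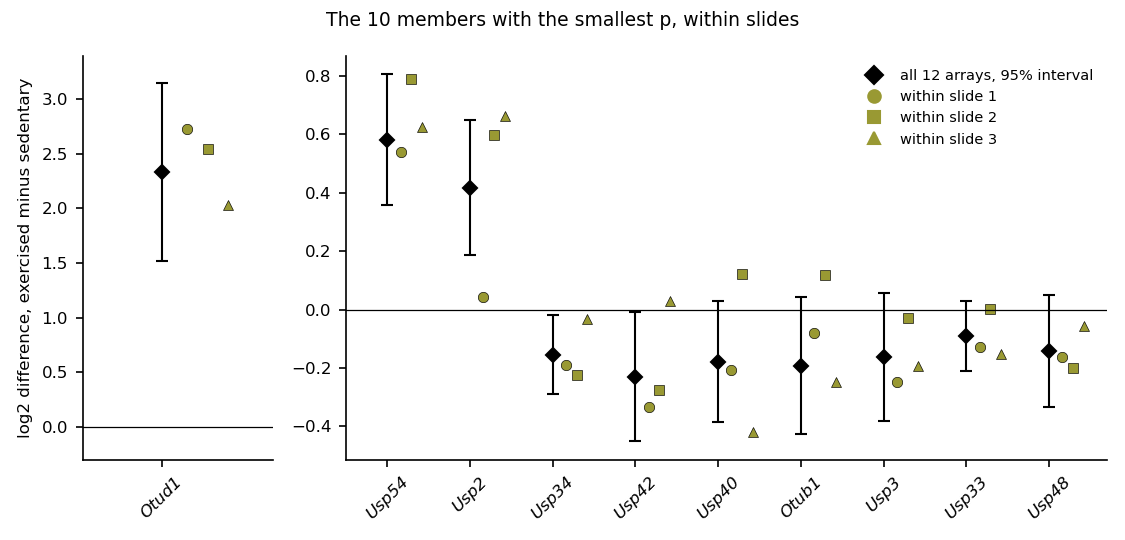
Log2 difference (vertical axis, exercised minus sedentary) over all 12 arrays with its 95% interval (black) and within each of the 3 slides (symbols) for the 10 members with the smallest p, with Otud1 on an axis of its own. Usp54 is similar on all 3 slides (0.54, 0.79 and 0.62), while Usp2 is near 0 on slide 1 (0.04).

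Other genes of the ubiquitin system were taken from lists. Of 35 tested genes in a list of further deubiquitinases and related genes, 0 were higher and 1 was lower, with a median difference of -0.05. This list was mixed. It held Senp proteases, which act on ubiquitin-like proteins, Uspl1 and Tnip1, and USP or OTU relatives outside the naming rule such as Usp18 and Yod1. The lower gene was Tnfaip3, which encodes the NF-kappaB inhibitor A20 and has an OTU domain but lies outside the naming rule. It was 2.11-fold lower (log2 -1.08, SE 0.110, adjusted p = 0.000229, or 0.000887 once slides were blocked). Mindy1 and Yod1 followed at -0.26 and -0.18 and did not pass. Of 22 partners of member enzymes, only Ube2d1, a conjugating enzyme that Otub1 can bind, passed, at 1.30-fold lower (adjusted p = 0.0359, or 0.108 once slides were blocked), and Vcp was at -0.21. Ube2d1 was also the only called gene among 37 ubiquitin, activating and conjugating genes, where Ube2w was at 0.27.

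Of 20 muscle ubiquitin ligases and FOXO factors, 2 were higher and 0 lower. Foxo1, a FOXO transcription factor, was 3.53-fold higher (adjusted p = 2.82e-05), and Trim63, the ligase MuRF1, was 1.36-fold higher (adjusted p = 0.0475, or 0.126 once slides were blocked). Foxo3 was at 1.16 on the log2 scale and did not pass (adjusted p = 0.0731). Fbxo32, the other ligase named above, was at 0.17 and did not pass (adjusted p = 0.741). Foxo4 was at 0.28 and did not pass either (adjusted p = 0.461).

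Whole muscle holds several cell types, and fewer cells of a type and less RNA per cell cannot be told apart. Marker lists of 10 cell types were compared by their mean deviation per array (two-sided exact permutation test, adjusted over the 10 lists). The permutation took no account of the slide, and the slides held unequal numbers of exercised and sedentary mice. The endothelial score, from 10 of 10 genes, averaged -0.11 ± 0.083 (SD, n = 6) after exercise and 0.11 ± 0.145 without (exact permutation p = 0.00866, adjusted p = 0.0433), with a log2 summed level from 5.46 to 5.79 against 5.71 to 6.05. The lymphocyte score, from 4 of 8 genes, was -0.17 ± 0.171 against 0.17 ± 0.169 (exact permutation p = 0.00649, adjusted p = 0.0433), with a summed level from -1.64 to -1.10 against -1.24 to -0.69. The tendon score, from 10 of 10 genes, was 0.39 ± 0.510 against -0.39 ± 0.579 (exact permutation p = 0.0238, adjusted p = 0.0519), with a summed level from 6.05 to 7.41 against 4.87 to 6.44. The brown adipocyte score, from 6 of 7 genes with Elovl3 above background on 0 arrays, was 0.68 ± 0.901 against -0.68 ± 0.669 with the same p values, and its summed level ran from 9.27 to 9.84 against 9.42 to 9.67. Among its genes Ppargc1a, which muscle fibres also express, was the 1 that passed, at a log2 difference of 1.88 (adjusted p = 0.000391). Ucp1 and Cidea were at 4.35 and 1.79 with adjusted p of 0.180 and 0.258, and Dio2, Cox8b and Cox7a1 were at 0.18, -0.10 and 0.01. The Schwann cell score, from 8 of 8 genes, was 0.13 ± 0.196 against -0.13 ± 0.124 (exact permutation p = 0.0260, adjusted p = 0.0519), with a summed level from 4.07 to 4.58 against 4.06 to 4.25. The muscle fibre and macrophage scores did not pass (exact permutation p = 0.143 and 0.959), and neither did those of slow fibres, white adipocytes and satellite cells. In the satellite cell list, 3 of 7 tested genes were above 0 and 4 below. Myog and Chrdl2 passed, at 1.20 and 0.58 (limma adjusted p = 0.00105 and 0.0104, or 0.00771 and 0.0455 once slides were blocked). Pax7 and Calcr were at -0.34 and -0.57 and did not pass. The part of these cell types in the differences of Otud1, Usp54 and Usp2 was not tested.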

How the data were processed

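Spot intensity on a linear scale was deposited by the authors, extracted with Agilent Feature Extraction 10.5.1.1 per the file headers, while the submitters' processing notes name version 9.1. The processed signal is background-subtracted and not scaled between arrays. Outlier spots were left out, spots of a probe averaged on log2, and each array's 75th percentile subtracted. Of 41174 gene probes, 22916 were well above background on at least 6 of 12 arrays. Genes were named by accession through the RefSeq genes, otherwise by the file, and the probe with the highest mean stood for a gene. Groups were compared with limma 3.58.1 (R 4.3.3, files read with the data.table package, version 1.17.8) without a block, called at an adjusted p below 0.05 over 16526 features; the code was tested on simulated data. Named were called members, the 8 uncalled with the smallest p, members without overlap, 13 chosen in advance and, in the other lists, every called gene and the 2 smallest p. Any other gene was named after its values were seen. Members and lists were chosen with earlier results of these data known. In the main comparison mice were not paired by the numbers shared between titles. For these numbers the correlations of deviations were 0.15, -0.19, 0.12 and 0.28. No reference from mice of unlike number was set beside them, so they cannot decide whether mice were paired. Alternatives changed scaling, background, source of values (the deposited matrix of linear intensity, 100% within 0.1% of the processed signal), filter, probe choice, variance model, blocks and arrays. Promoter windows are from RefSeq, with entries for 45 of 59 members. Protein sequences were not used here.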

Additional observations from a re-analysis of the deposited data

Results flagged for a closer look

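The 21 members named by the plan given under processing were examined by Dixon's criterion for a mouse far from the others. Other members named in the text were not examined. The 21 gave 42 groups of 6 mice, and chance alone meets the criterion in about 1 in 20 groups. Usp1 in sedentary mice met it with a gap of 0.652 of the group's range: the mouse labelled group 2 animal 4, on slide 3, was at 0.75, the next at 0.99 and the far end at 1.12. Otud5 in sedentary mice met it with a gap of 0.668 of the range: the mouse labelled group 2 animal 2, on slide 1, was at 1.47, the next at 1.24 and the far end at 1.12. Neither gene passed the comparison of groups.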

How the results depend on the processing

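The comparison was repeated under 32 alternatives. The count of members lower was 0 under every one. The count of members higher was 2, or 3 with Usp2 added, in all but the following: 0 under normexp background correction, 0 within slide 1, 0 within slide 2, 0 within slide 3, 1 (Otud1) on the 8 arrays whose title numbers occur in both groups with that number as a replicate block, and 0 on the same 8 arrays with no block. These subsets hold fewer arrays. Normexp left 4 arrays with a 10th percentile of 9.52 to 11.2 against 5.83 to 5.93 on the others, and called 0 of all genes; with the local background limited to its 99th percentile, an alternative chosen after seeing the data like the 8 arrays with no block, 3 members were called. Leaving out each array in turn gave 2 to 3 members higher and 0 lower, with Otud1 (adjusted p 0.0014 to 0.0132) and Usp54 (0.00877 to 0.0222) called each time. Usp2 ran from 0.0427, without the sedentary mouse labelled group 2 animal 5, to 0.107, and passed under 5 alternatives in all: that one, probes above background on all 12 arrays, a trend with robust variance, an adjusted p below 0.10 and the limited normexp. Of the 19 uncalled members named by the plan given under processing, 16 changed sign in 1 or more alternatives. With 6 mice a group, a difference smaller than the half-width of its interval could not reach an unadjusted p below 0.05. Calls needed an adjusted p below 0.05, so a larger difference could also go uncalled, as it did for Usp2 in the main comparison.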
